A study of Mus musculus with 2 samples.

Results

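Arterial endothelial cells of the developing mouse retina were taken as the cells that the study's own clustering had named Arterial, the exact label in its published list of cell clusters. They were 40 of 1560 labelled cells in the library of postnatal day 6 (P6) and 11 of 438 labelled cells in the library of postnatal day 15 (P15), or 51 of 1998 labelled cells in all. The Arterial share was 2.56% at P6 (95% Clopper-Pearson interval 1.84 to 3.48%) and 2.51% at P15 (1.26 to 4.45%). The list used here holds the labels of every P6 cell that was labelled but is cut short within P15. The P15 values thus rest on the first part of that list. In the P15 library 1703 of 2141 barcodes had no label here, against 424 of 1984 in the P6 library. Labels predicted from the nearest labelled cells named 32 further P15 barcodes Arterial. The 11 labelled cells may therefore be a minor part of the Arterial cells of that library. The study named another cluster Cap-Arterial, with 162 cells at P6 and 68 at P15, and the Arterial cells were compared with these and with all other labelled cells of the same library (1520 and 427).

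The retinal vasculature of the mouse grows after birth from the optic nerve head as a plexus that is remodelled into alternating arteries and veins with capillaries between them. Arterial endothelium lines vessels with fast, pulsatile flow and a coat of smooth muscle; it makes elastic fibre proteins, and its identity has been linked to Notch signalling, SoxF transcription factors and the gap junction genes Gja4 and Gja5. Carriers that move nutrients across the blood-retina barrier are known mostly from capillary and venous endothelium.

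Wild-type C57BL/6 mice gave 1 library per age, from retinal cells sorted for CD31, an endothelial surface protein, and against CD45, a leukocyte protein, and captured in droplets that tag each transcript with a unique molecular identifier (UMI). How many animals went into a library was not given in the sources used here. The P6 library held 1984 cell barcodes with 13956107 UMIs of named genes, and the P15 library 2141 barcodes with 11587949. The 40 Arterial cells of P6 held 197565 UMIs, with a median of 4400 per cell (2754 to 10877), and the 11 of P15 held 49069, with a median of 5152 (2164 to 6297). Cap-Arterial cells had medians of 4471.5 and 3919 UMIs. Levels are given as UMIs of a gene per 1000000 UMIs summed over a group of cells (CPM), and ratios are between such levels. Intervals are at 95% and hold the error of counting UMIs or cells alone. No difference has a replicate check, since each age has 1 library, and age and library cannot be told apart. The labels came from clustering the same genes, so the ratios between clusters describe the cluster and test nothing. The libraries shared 7 barcodes, of which 0 were labelled in both and 0 belonged to Arterial cells.

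The levels of Bmx, Mgp, Eln, Dkk2 and Gkn3, genes known to mark arterial endothelium, are given to describe the cluster. The label was made from the same transcripts and the study used Bmx to name the cluster, so high levels are no independent check of the name. Each was highest in Arterial cells among the 9 clusters at both ages. Mgp, which encodes matrix Gla protein, an inhibitor of BMP signalling and of calcification, stood at 1741 CPM in P6 Arterial cells (1562 to 1935) and 16.8 CPM in Cap-Arterial cells (9.16 to 28.1). At P15 it stood at 1916 CPM in Arterial cells (1548 to 2344) and 122 CPM in Cap-Arterial cells (86.1 to 169). Eln, the gene of tropoelastin, stood at 987 CPM in P6 Arterial cells (853 to 1136) and 34.7 CPM in Cap-Arterial cells (23.2 to 49.8). Bmx, a cytoplasmic tyrosine kinase of arterial endothelium and endocardium, stood at 491 CPM in P6 Arterial cells (398 to 599) and 62.2 CPM in Cap-Arterial cells (46.5 to 81.6). Dkk2, a secreted modulator of Wnt signalling, stood at 369.5 CPM (289.6 to 465) and 32.3 CPM (21.3 to 47.0). Gkn3, a secreted gastrokine family protein, had 21 UMIs in the P6 Arterial cells and 1 in the Cap-Arterial cells, a ratio of 88.9 (14.3 to 3674.5), which was 9.39 after each cell was thinned to 2000 UMIs. The sum of the 5 genes was 25.1 times higher in Arterial than in Cap-Arterial cells at P6 (20.7 to 30.7), and 11.7 times higher at P15 (9.09 to 15.02). It was 137.9 times higher than in all other labelled cells at P6 (119 to 160) and 18.8 times at P15 (15.7 to 22.4). For Bmx, Mgp, Eln and Dkk2 the intervals of Arterial and Cap-Arterial cells did not overlap at P6. The share of all genes for which this held is not given here, so it describes these markers alone. At P15 Eln stood at 591 CPM in Arterial and 112 CPM in Cap-Arterial cells, a ratio of 5.26 (3.09 to 8.90) that was 11.6 after thinning and 11.5 with predicted labels, which extend the published list to the unlabelled P15 cells by their nearest labelled neighbours. Gkn3 had 20 UMIs against 6, a ratio of 20.6 (7.97 to 62.6), or 9.19 without the Arterial cell that held most of them. Dkk2 had 9 UMIs against 1, a ratio of 55.5 (7.69 to 2433.7), or 11.1 with predicted labels. All 5 markers thus had a higher level in the Arterial cells at both ages. At P15 the ratio for the 5 genes to Cap-Arterial cells was 8.77 without the Arterial cell that held most of their UMIs and 16.7 among cells that passed the study's stated filter, read as a range of 200 to 3500 genes per cell with an upper limit of 5% on mitochondrial UMIs, after leaving out cells positive for Cd63, Neurod1 or Hbb-bt.

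The markers were not found in every Arterial cell. At P6, Bmx was found in 34 of the 40 cells, Dkk2 in 27, Eln in 26, Mgp in 22 and Gkn3 in 9. Among Proliferative cells, which should lack them, Bmx was found in 0 of 198, Mgp in 9, Eln in 9 and Dkk2 in 2, at a median of 7953.5 UMIs per cell against 4400 in Arterial cells. For Bmx that is 85% of Arterial cells (70.2 to 94.3%) against 0% (up to 1.85%), and 60.0% against 0% once each cell was thinned to 2000 UMIs, which left out 0 Arterial cells and 1 Proliferative cell of P6. For Mgp the shares were 55% and 4.55%, and after thinning 20 of 40 Arterial cells and 3 of 197 Proliferative cells held it. In P15, 11 of 11 Arterial cells held Bmx, 8 held Eln, 7 Mgp, 5 Gkn3 and 3 Dkk2, at a median of 5152 UMIs. Of the 14 Proliferative cells of P15, at a median of 7570 UMIs, 2 held Bmx, 7 Eln, 1 Mgp, 1 Gkn3 and 0 Dkk2. After thinning, Eln was found in 63.6% of P15 Arterial cells and 15.4% of Proliferative cells. At least 3 of the 5 markers were found in 22 of 40 P6 Arterial cells, and in 4 of all 1520 other labelled cells, each of them a Cap-Arterial cell. At P15 they were found in 7 of 11 Arterial cells and in 11 of 427 other labelled cells (2.58%, against 0.263% at P6), of which 6 were Cap-Arterial cells.

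**Figure D1:**
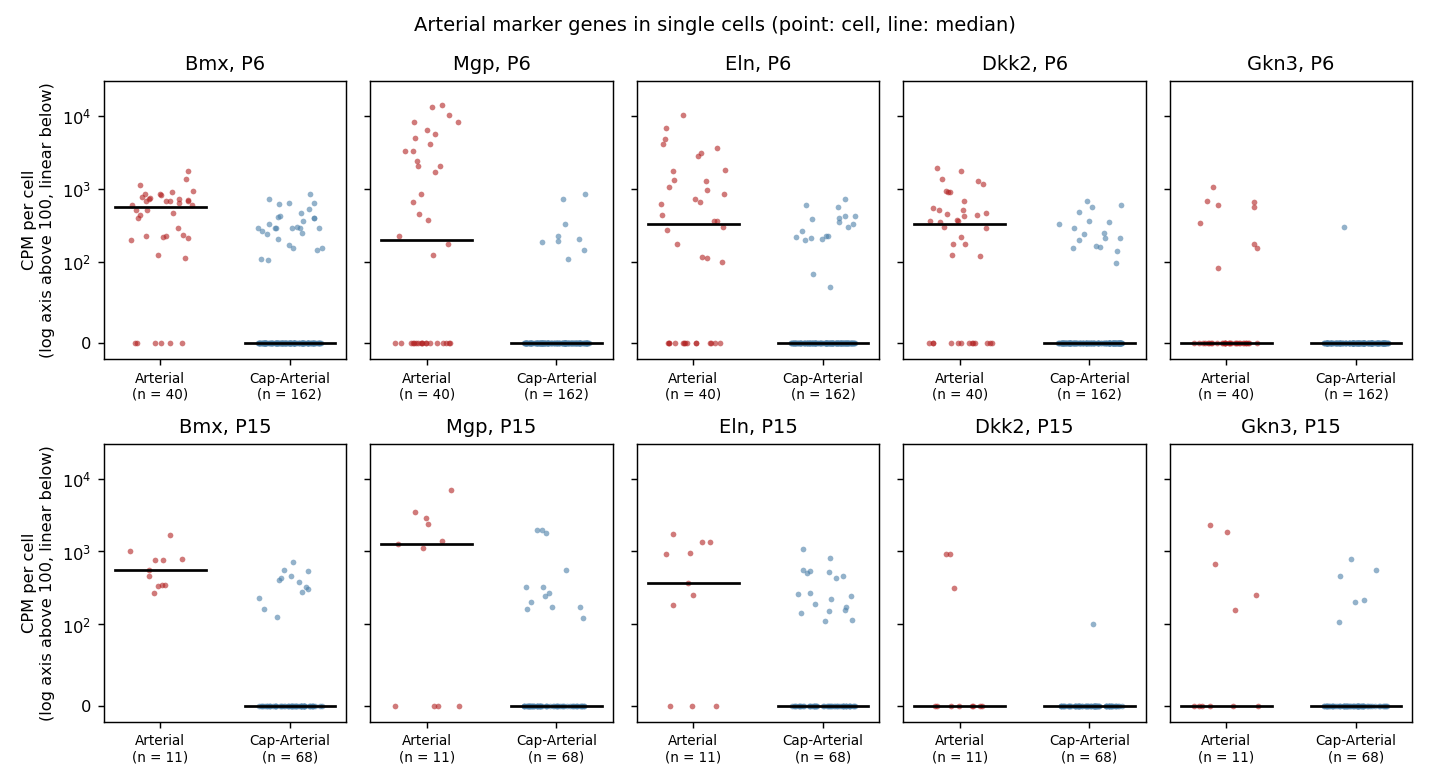
CPM of the 5 arterial markers in each Arterial and Cap-Arterial cell of P6 (upper panels) and P15 (lower panels), on an axis that is linear below 100 and logarithmic above; each point is a cell and the line is the median. At P6 the median Arterial cell held 561.5 CPM of Bmx, 330.1 of Eln, 328.9 of Dkk2, 199.8 of Mgp and 0 of Gkn3, while the median Cap-Arterial cell held 0 of each.

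General endothelial genes were found in Arterial cells at both ages. The 8 endothelial genes Pecam1, Cdh5, Kdr, Tie1, Erg, Cldn5, Egfl7 and Emcn were all found, with 1996 UMIs or 10103 CPM in P6 Arterial cells (9665 to 10556) and 10519 CPM in Cap-Arterial cells (10300 to 10741); Cldn5 was the most abundant, with 1237 UMIs. At P15 they stood at 12207 CPM in Arterial cells (11249 to 13225) and 14528 CPM in Cap-Arterial cells (14102 to 14964), intervals that did not overlap. Smooth muscle, pericytes and fibroblasts, which surround arteries, can also make Mgp and Eln, so their genes were counted. Of the smooth muscle genes, Smtn gave all 17 UMIs in P6 Arterial cells, 86.1 CPM against 123 CPM of the whole list in Cap-Arterial cells, while the contractile genes Acta2, Tagln, Myh11, Des and Lmod1 were at 0. The pericyte genes gave 4 UMIs in P6 Arterial cells (20.3 CPM, 5.52 to 51.8), the fibroblast genes Col1a1, Col1a2, Col3a1, Lum and Pdgfra 0, the leukocyte genes 0 and the lymphatic genes 0. The red cell genes gave 2 UMIs, from Hba-a2 and Hbb-bs, and the photoreceptor genes 5. The list of glial genes gave 312 UMIs, of which 309 were Glul, glutamine synthetase. Glul stood at 1564 CPM in Arterial and 1591 CPM in Cap-Arterial cells, while Gfap, Slc1a3 and Rlbp1 were at 0 in Arterial cells. The whole glial list stood at 1579 CPM in Arterial cells and 318 CPM in all other labelled cells, which include Cap-Arterial cells. In those other cells Glul gave 2917 of the 3004 UMIs of the list. The list of neuronal genes gave 267 UMIs, of which 233 were Stmn2, described with the leading genes. Neurod1, Tubb3, Elavl4 and Pax6 were at 0. The study left out cells positive for Neurod1, Cd63 or Hbb-bt, so the zeros of these 3 genes in the lists were set by its filter. Without Stmn2 the neuronal list stood at 172 CPM in Arterial and 163 CPM in Cap-Arterial cells. At P15 the Arterial cells held 3 smooth muscle UMIs, 2 of pericytes, 0 of fibroblasts, 1 of leukocytes, 0 of lymphatic endothelium, 4 of photoreceptors, 21 of the neuronal list, 12 of red cells and 169 of the glial list, with all 169 from Glul. Pericyte genes stood at 40.8 CPM in P15 Arterial cells (4.94 to 147) and 175 CPM in P15 Cap-Arterial cells (131 to 229), against 10.8 CPM in P6 Cap-Arterial cells (4.92 to 20.4). In all other labelled cells the pericyte genes stood at 244 CPM at P15 and 12.2 CPM at P6. Smooth muscle genes stood at 61.1 CPM in P15 Arterial cells (12.6 to 178.7) and 168.5 CPM in P15 Cap-Arterial cells (125 to 221.5), and red cell genes at 244.6 and 172 CPM, against 10.1 and 27.5 CPM at P6.

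Against Cap-Arterial cells at P6, elastic fibre genes were among the genes at least 2-fold higher in Arterial cells and barrier carriers among those at least 2-fold lower. Of 3367 genes with at least 10 UMIs expected in the Arterial cells, 105 were at least 2-fold higher (3.12% of the genes) and 150 at least 2-fold lower (4.46%). The median log2 ratio over all these genes was 0.01. The floor was set on the UMIs of both groups together, so a gene could pass it through the group where it was higher, and such a gene had to differ. A stricter floor, chosen after seeing the data, asked for 10 UMIs in the Arterial cells and for 10 expected there from the other group alone. Of the 2995 genes that met it, 69 were at least 2-fold higher (2.3%) and 60 at least 2-fold lower (2%). It leaves out genes nearly absent from one group, such as Mgp in Cap-Arterial cells.

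Matrix genes were among the genes that were higher. Mgp was 104 times higher (61.1 to 192) and Eln 28.5 times (19.2 to 43.6). Fbln5, an elastin-binding fibulin needed for elastic fibre assembly, stood at 2126 CPM against 260.8, or 8.15 times higher (6.91 to 9.65). Fbln2, another fibulin of the vessel wall, was 5.91 times higher (4.02 to 8.74), and Ltbp4, which holds latent TGF-beta in the matrix and guides elastin deposition, 4.86 times higher (3.69 to 6.41). The 5 genes encode proteins that are laid down in the wall of elastic vessels. Serpinf1, the gene of the antiangiogenic secreted factor PEDF, was 8.57 times higher (5.77 to 12.9).

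Signalling and surface genes were among them too, with Dkk2 and Bmp2 ranked above Fbln2 and Ltbp4. Jag1, a Notch ligand, stood at 1088 CPM in P6 Arterial cells against 199.8, a ratio of 5.45 (4.43 to 6.71). Bmp2, a bone morphogenetic protein, was 12.1 times higher (6.44 to 24.1), on 40 UMIs in Arterial cells, and 7.42 times without the Arterial cell that held most of them. Gja5, the gap junction protein that couples arterial endothelium, was 9.87 times higher (5.25 to 19.5), on 35 UMIs, and 15.1 times after thinning. The other arterial connexin gene, Gja4, was at 1913 CPM in Arterial and 1859 CPM in Cap-Arterial cells, a ratio of 1.03 (0.917 to 1.15), so the connexins differed in how they divided these clusters. Vcam1, an adhesion molecule for leukocytes, was 8.46 times higher (5.49 to 13.3; 12.8 after thinning), Dkk2 11.4 times (7.27 to 18.5) and Bmx 7.89 times (5.58 to 11.3). Stmn2, a microtubule regulator best known from neurons, was 5.03 times higher (4.14 to 6.11), and Car7, a cytosolic carbonic anhydrase, 5.82 times (3.61 to 9.48). Gm37760, a predicted transcript of unknown coding status, was 5.21 times higher (3.71 to 7.34), but 1.92 times without the Arterial cell that held most of its UMIs and 7.89 times after thinning. Its locus overlaps Casp8 on the same strand, so reads of these genes could not be told apart.

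Stmn2 was shared with Cap-Arterial cells and almost missing elsewhere. It was found in 34 of 40 P6 Arterial cells (85%), in 38 of 162 Cap-Arterial cells (23.5%) and in 1 of 198 Proliferative cells (0.505%). It stood at 1179 CPM in Arterial cells, 234.5 CPM in Cap-Arterial cells and at most 3.52 CPM in each of the other clusters of P6. Thinned to 2000 UMIs per cell, it was found in 77.5% of Arterial cells, 19.3% of Cap-Arterial cells and 0.508% of Proliferative cells.

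Genes of barrier transport led the lower side. Slc7a5, the large neutral amino acid carrier, stood at 65.8 CPM in P6 Arterial cells (35.04 to 112.5) and 1223 CPM in Cap-Arterial cells (1149 to 1300), a ratio of 0.0538 (0.0286 to 0.0925). Its partner chain Slc3a2 had a ratio of 0.277 (0.218 to 0.348). Slc38a5, a glutamine carrier used as a venous gene, had a ratio of 0.101 (0.0460 to 0.194). Mfsd2a, the carrier of lysophosphatidylcholine that restrains transcytosis in barrier endothelium, had a ratio of 0.112 (0.0572 to 0.197), and 0.0490 without the Arterial cell that held most of its UMIs. Slco2b1, an organic anion carrier, had 1 UMI in Arterial cells and a ratio of 0.0460 (0.00115 to 0.263), with 0.109 after thinning. Slc22a8, another organic anion carrier, had 0 UMIs in Arterial and 53 in Cap-Arterial cells, at least 4.18-fold lower against a floor of 3 UMIs over the group. The carriers were named for their rank among the lowest ratios, or in the case of Slc3a2 as a member of the barrier list, so their shared direction is no separate result.

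The other genes named as lower in P6 Arterial cells had varied roles. Aplnr, the apelin receptor of venous and sprouting endothelium, had a ratio of 0.0951 (0.0346 to 0.210), or 0.0498 without the Arterial cell that held most of its UMIs. Gatm, which makes the precursor of creatine, had 0 UMIs in Arterial cells and 71 in Cap-Arterial cells, at least 5.59-fold lower. Rgcc, a cell cycle regulator, had a ratio of 0.151 (0.0904 to 0.239), and Htra3, a secreted serine protease, of 0.169 (0.0892 to 0.293). Ttyh2, a membrane protein of the tweety family, had 1 UMI in Arterial cells and a ratio of 0.0378 (0.000948 to 0.215). With so few UMIs these values moved with depth: after thinning, the ratio or its bound was 0.257 for Ttyh2, 0.464 for Gatm and 0.549 for Slc22a8, which ends the 2-fold call for Slc22a8.

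**Figure D2:**
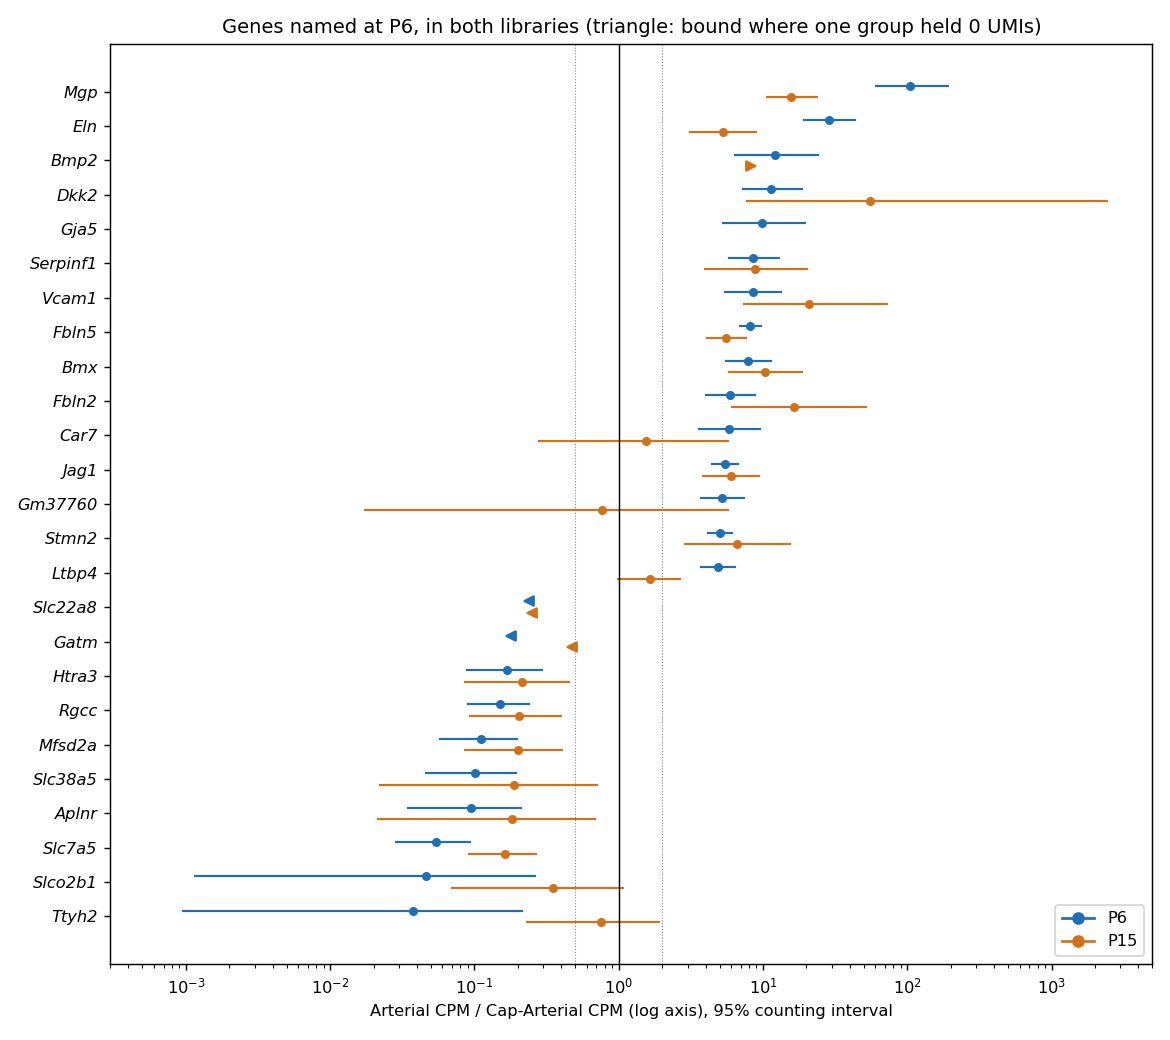
Ratio of Arterial to Cap-Arterial CPM (log axis) for the 15 higher and 10 lower genes named at P6, in the P6 and P15 libraries; bars are 95% counting intervals, triangles are bounds where a group held 0 UMIs, and genes with at most 3 UMIs in both groups are left out. At P6 the ratios ran from 104 for Mgp to 0.0378 for Ttyh2, and at P15 Gm37760, Car7, Ltbp4, Ttyh2 and Slco2b1 had intervals that held 1.

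In the GENCODE M21 annotation of GRCm38, Mgp lies on chromosome 6 at 136872435 to 136875823 (minus strand), Eln on chromosome 5 at 134702593 to 134747323 (minus), Bmx on chromosome X at 164192842 to 164258193 (minus), Dkk2 on chromosome 3 at 132085292 to 132180304 (plus) and Gkn3 on chromosome 6 at 87383256 to 87388935 (minus). Fbln5 lies on chromosome 12 at 101746565 to 101819055 (minus), Jag1 on chromosome 2 at 137081456 to 137116644 (minus), Gja5 on chromosome 3 at 96904693 to 97077416 (plus), Slc7a5 on chromosome 8 at 121881150 to 121907694 (minus) and Slc22a8 on chromosome 19 at 8591254 to 8611835 (plus). All are protein-coding genes. Eln, Gja5 and Slc7a5 overlap genes on the opposite strand, as do Vcam1, Slco2b1, Edn1, Ptprr, Depp1, Cdkn1a, Col18a1, B2m and Malat1, and the strand used in counting was not given in the sources used here, so their counts are uncertain to that extent. Malat1 and Slc16a1 also overlap noncoding genes on their own strand.

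The sequences before the starts of the leading genes were searched for letters of motifs tied to arterial gene control: the core of the Notch effector RBPJ, GTGGGAA or its reverse TTCCCAC, and the core of KLF factors, CACCC or its reverse GGGTG. In RefSeq's windows of GRCm38.p6, the 250 bases before the start were used, and 9 of the 15 higher and 8 of the 10 lower genes were matched. Mgp, Eln, Bmp2, Vcam1, Stmn2, Gm37760, Slc7a5 and Aplnr were not matched. A gene with several starts has several windows, 14 for the 9 higher genes and 10 for the 8 lower genes, and counts as holding the letters if any of its windows does. The RBPJ letters were in 0 of the 9 higher and 0 of the 8 lower genes and in 6.18% of all 27025 genes. The KLF letters were in 7 of the 9 higher genes (77.8%), 4 of the 8 lower genes and 54.5% of all genes. Since 9 of 15 is fewer than 80% of the higher genes, the comparison is void and the counts are a description. The stretches of Dkk2 (chr3:132085042-132085291, plus strand) and Gja5 (chr3:97032152-97032401, plus strand), both higher in Arterial cells, and of Slc22a8 (chr19:8592932-8593181, plus strand), with 0 UMIs there, are shown as genes from both sides of the comparison; capitals mark the KLF letters. The windows of Gja5 and Slc22a8 lie within the GENCODE spans of their genes.
Dkk2: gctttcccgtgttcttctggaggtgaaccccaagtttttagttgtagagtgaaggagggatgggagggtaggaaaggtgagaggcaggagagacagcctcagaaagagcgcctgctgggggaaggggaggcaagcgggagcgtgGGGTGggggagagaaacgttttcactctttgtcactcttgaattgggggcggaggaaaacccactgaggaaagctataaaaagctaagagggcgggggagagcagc
Gja5: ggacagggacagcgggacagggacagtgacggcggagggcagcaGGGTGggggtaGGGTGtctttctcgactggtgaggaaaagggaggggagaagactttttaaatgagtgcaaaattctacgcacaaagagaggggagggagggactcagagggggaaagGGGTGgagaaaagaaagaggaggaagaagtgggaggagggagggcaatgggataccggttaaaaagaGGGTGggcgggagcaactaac
Slc22a8: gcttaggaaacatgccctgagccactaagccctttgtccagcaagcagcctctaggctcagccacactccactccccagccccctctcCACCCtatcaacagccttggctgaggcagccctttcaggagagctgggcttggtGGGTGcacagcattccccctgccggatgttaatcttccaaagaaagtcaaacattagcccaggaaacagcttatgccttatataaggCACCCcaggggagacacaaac

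The lists of genes grouped by role are read against the 3.12% of all genes that were at least 2-fold higher and the 4.46% that were at least 2-fold lower than in Cap-Arterial cells at P6, or 2.3% and 2% under the stricter floor. The lists and their members were chosen with earlier results of these data known, so a count above these shares is a description and no support. The same holds for the list counts at P15 and against all other labelled cells. Of the 22 elastic fibre and arterial matrix genes, 6 met the stricter floor, of which 3 were higher (Fbln2, Fbln5 and Ltbp4) and 0 lower. Mgp and Eln, also past 2-fold, reached the first floor only through their Arterial UMIs, with 3.31 and 6.85 UMIs expected from Cap-Arterial cells alone, so they are not counted for the list. Of the 23 barrier and carrier genes, 14 met the stricter floor, of which 9 were lower and 1 higher. Slc16a1, Slco2b1, Slc38a3, Slc38a5, Slc22a8, Tfrc and Lrp8 were also past 2-fold lower, on fewer than 10 Arterial UMIs each, and were counted only under the first floor. Itm2a, Tfrc, Lrp8 and Spock2, barrier genes of the list that are not solute carriers, and Slc7a1, Slc16a1, Slco1c1, Slc38a3, Slc39a10 and Slc40a1 stood beside the 6 carriers already named. Tfrc, the transferrin receptor for iron uptake, had 1 UMI in Arterial cells against 71, a ratio of 0.0596 (0.00149 to 0.343), or 0.366 after thinning. The exception was Slco1a4, an organic anion carrier, at 334 CPM against 136, a ratio of 2.45 (1.78 to 3.35) that was 1.77 after thinning. The glucose carrier Slc2a1 had a ratio of 0.757 (0.660 to 0.865) and the efflux pump Abcb1a of 0.903 (0.608 to 1.31), so transport genes did not all stand lower. Of the junction genes, 0 of 11 were past 2-fold either way, and the median was 0.03.

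The study listed arterial and venous genes from earlier publications. To name the Arterial and Cap-Arterial clusters the study used Bmx, Sox17, Gja5, Gja4, Hey1, Jag1 and Efnb2, so their levels are no independent check. As other genes listed by the study could have shaped the clusters too, the counts describe the cluster. Of its arterial identity genes, 4 of 12 were higher in P6 Arterial than in Cap-Arterial cells (Bmx, Mecom, Sema3g and Jag1), 0 were lower and the median log2 ratio was 0.75. All 12 met the stricter floor. Of its venous genes, 6 met it, of which 2 were lower (Ctla2a and Tmsb10) and 0 higher; Slc38a5 and Aplnr were lower too, on 9 and 6 Arterial UMIs. Several arterial regulators lay below 2-fold. Sox17, a SoxF transcription factor of arterial fate, stood at 1407 CPM against 714, a ratio of 1.97 (1.70 to 2.28). Hey1, a transcriptional target of Notch, had a ratio of 1.83 (1.35 to 2.45), and Efnb2, the ephrin of arterial endothelium, of 1.33 (0.784 to 2.17).

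Signalling lists at P6 were counted over the first floor, where 3.12% of all genes were higher and 4.46% lower. Of the Notch pathway genes, 1 of 10 was higher (Jag1); the ligand Dll4 had a ratio of 1.40 (0.985 to 1.96). Of the TGF-beta and BMP genes, 2 of 12 were higher, namely Bmp2 and the ligand Tgfb2, at 344 CPM against 163, which was 1.82 times higher without the Arterial cell that held most of its UMIs. Of the endothelial transcription factors, 2 of 22 were higher (Mecom and Gata2) and 3 lower, with Foxf2 and Meox1 among them. Meox1 had 1 UMI in Arterial cells against 65, a ratio of 0.0651 (0.00162 to 0.376) that was 0.155 after thinning. Of the flow-responsive and vasoactive genes, 1 of 13 was higher, the vasoconstrictor gene Edn1, with a ratio of 2.73 (1.65 to 4.45) that was 1.81 without the Arterial cell that held most of its UMIs; Klf2, a transcription factor induced by laminar flow, had a ratio of 1.44 (1.29 to 1.61). Of the VEGF and Tie genes, 1 of 7 was higher, the growth factor Vegfc, with a ratio of 3.40 (2.32 to 4.95) that was 2.16 after thinning, and Aplnr was lower. Of the chemokine and guidance genes, 2 of 13 were higher (Cxcl12 and Sema3g) and 1 lower (Sema6a). Cxcl12 was 2.08 times higher, and 1.85 times without the Arterial cell that held most of its UMIs, and Sema6a had a ratio of 0.474, or 0.529 among cells that passed the stated filter. Of the ligands and receptors for mural cell recruitment, 2 of 7 were higher (Jag1 and Edn1), and of the Norrin and Wnt genes 1 of 5 (Dkk2).

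Caveolae, the flask-shaped pits of endothelial membranes, have coat genes that were counted as a list. Of these, 3 of 9 were higher in P6 Arterial cells (Cav2, Cavin2 and Ehd4), and 1 was lower, Plvap, which forms the diaphragm of fenestrae and vesicles. Cav2 had a ratio of 2.46 (1.90 to 3.18), Cav1 of 1.70 (1.26 to 2.27) and Plvap of 0.312 (0.212 to 0.444). Ehd4 had a ratio of 2.21 that was 1.78 after thinning. The median log2 ratio of the list was 0.76.

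Among the remaining lists at P6, 1 of 12 basement membrane genes was lower (Lamb1), 1 of 3 connexins was lower (Gja1), 1 of 12 coagulation and adhesion genes was higher (Vcam1) and 1 of 3 lipid uptake genes was lower (Angptl4). Lamb1 had a ratio of 0.394, or 0.559 after thinning, and Gja1 of 0.489, or 0.516 among cells that passed the stated filter. Gja5 lay under the floor of expected UMIs and is not among those 3 connexins. Of the cell cycle genes, 2 of 8 were higher: Ccnd2, a D cyclin, with a ratio of 2.63 (1.93 to 3.55), and Pcna, a replication clamp, which was 2.22 times higher but 1.07 times without the Arterial cell that held most of its UMIs and 0.968 times among cells that passed the stated filter. Of the actin and contractile genes, 2 of 23 were higher (Lmna and S100a6) and 1 lower (Tmsb10). Lmna had a ratio of 2.25, or 1.725 after thinning, and Tmsb10 of 0.489, or 0.509 under the filter. Of the dissociation and stress genes, which can rise during cell preparation, 1 of 12 was higher (Fos, with a ratio of 2.69 that was 1.65 without the Arterial cell that held most of its UMIs) and the median was 0.64; the part of preparation in the other ratios was not tested. Of the interferon genes, 0 of 4 were past 2-fold. Of the members named past 2-fold in these lists, Bmp2, Dkk2, Vcam1, Pcna and S100a6 on the higher side and Meox1, Aplnr and Lamb1 on the lower side did not meet the stricter floor, so their part in the counts is a description. Ribosomal protein genes took a median of 12.6% of the UMIs of a P6 Arterial cell and 15.99% of a Cap-Arterial cell. At P15 these medians were 8.33% and 8.01%.

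**Figure D3:**
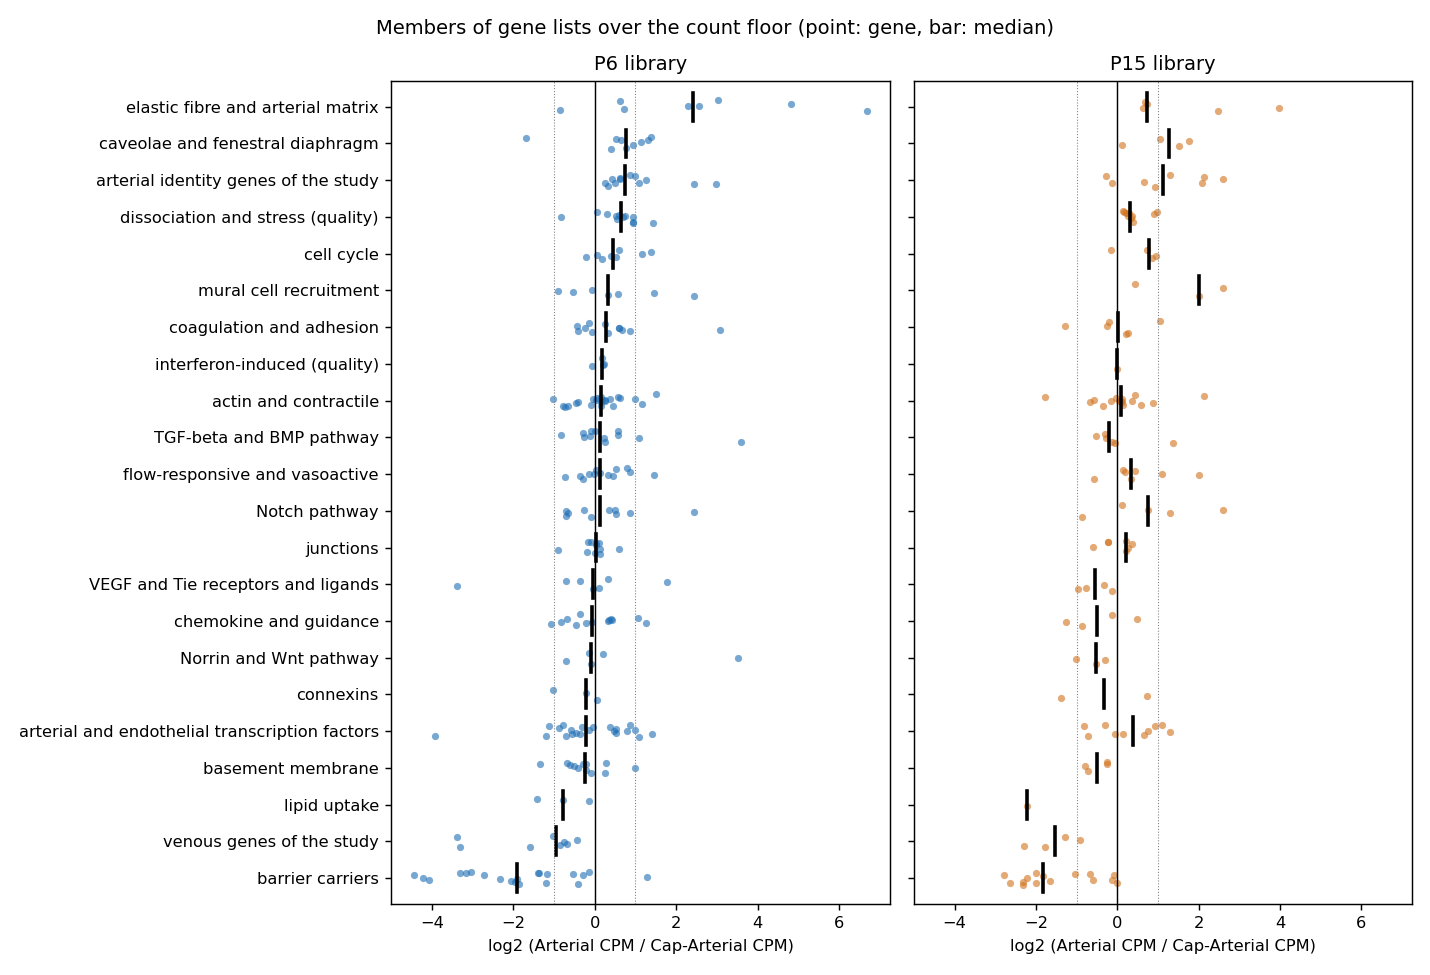
Log2 ratio of Arterial to Cap-Arterial CPM for each member of the 22 gene lists over the count floor, at P6 (left) and P15 (right); points are genes, bars medians and dotted lines 2-fold. Members that reached the floor only through the group where they were higher are drawn too, among them Mgp and Eln at P6, so the bars are a description and no support for a list.

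Against all other labelled cells, the contrast at P6 was wider. Of 3175 genes over the floor, 200 were at least 2-fold higher in Arterial cells (6.3%) and 267 at least 2-fold lower (8.41%), with a median log2 ratio of -0.02. Named genes needed at least 50 UMIs over both groups and not this floor, and were ranked by the bound of the interval nearest 1. Mgp was 288.5 times higher (217 to 389), Eln 103.6 times (80.3 to 135) and Dkk2 96.9 times (64.2 to 149). Bmp2 was 86.9 times higher (50.4 to 154; 53.3 without the Arterial cell with most of its UMIs), Bmx 68.2 times (49.5 to 94.4), Gja5 88.1 times (49.0 to 163) and Stmn2 54.1 times (44.6 to 65.5; 35.2 after thinning). Serpinf1, Car7 and Fbln2 completed the 10 leading genes, with ratios of 61.9, 55.4 and 51.7. All 10 were also among the genes named against Cap-Arterial cells. On the lower side Slc7a5 had a ratio of 0.0443 (0.0236 to 0.0758), Slc38a5 of 0.0627, Aplnr of 0.0462 and Ttyh2 of 0.0151 on 1 UMI (0.000383 to 0.0843), and Gatm was at least 11.02-fold lower. Aplnr was at 0.0242 without the Arterial cell that held most of its UMIs, and after thinning the ratio or its bound was 0.102 for Ttyh2 and 0.227 for Gatm.

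The lists were counted over the first floor against all other labelled cells. Of the caveolar genes, 5 of 9 were higher in P6 Arterial cells, and of the endothelial transcription factors 6 of 19 (Sox7, Sox17, Mecom, Klf2, Klf4 and Epas1), with 4 lower, among them Foxf2, Nr2f2 and Meox1. Sox7 had a ratio of 2.08, or 1.93 without the Arterial cell that held most of its UMIs. Klf4, a flow-induced factor like Klf2, had a ratio of 5.88. Gja4 was 8.13 times higher here, although equal to Cap-Arterial cells within counting error. Of the cell cycle genes, 5 of 16 were lower (Ccnd1, Ccna2, Ccnb1, Cdk1 and Mcm6) and 2 higher (Ccnd2 and the connexin gene Gja4, which the list also holds). After thinning the ratios of Ccna2, Ccnb1 and Cdk1 were 0.516, 0.870 and 0.511, which ends their 2-fold calls. Of the stress genes, 7 of 9 were higher (Fos, Jun, Junb, Jund, Ier2, Dusp1 and Btg2), with a median log2 ratio of 1.55; their part in the other ratios was not tested. Under the stricter floor 6.75% of 2799 genes were higher and 3.18% lower. The caveolar, stress and higher transcription factor counts stayed at 5, 7 and 6, while of the cell cycle genes 1 was lower (Cdk1) and of the transcription factors 1 (Foxf2). Of the barrier carriers, 13 met it, of which 6 were lower, and of the study's venous genes 6, of which 3 were lower.

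Levels across the 9 clusters are given for some of the genes named by their ratios or singled out after their values were seen. That Arterial cells lie at an end follows in part from that choice and is no separate result. Jag1 was highest in Arterial cells at P6, followed by Stalk cells at 434.5 CPM (401 to 470), then Venous, Capillary and Cap-Arterial cells, whose intervals overlapped. Cdkn1c, an inhibitor of cyclin-dependent kinases, stood at 288.5 CPM in P6 Arterial cells (219 to 374) and 202 CPM in Cap-Arterial cells (173 to 235), and these intervals overlapped, while each of the other clusters was at 21.04 CPM or less. Ccnd2 stood at 364 CPM in P6 Arterial cells (285 to 459), above Cap-Arterial cells at 139 CPM (115 to 166). Slc7a5 was lowest in Arterial cells at both ages. At P6 the next lowest cluster for Slc7a5 was Primitive, at 877 CPM (818 to 939). Mfsd2a was lowest in Arterial cells at P6, at 60.7 CPM (31.4 to 106).

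**Figure D4:**
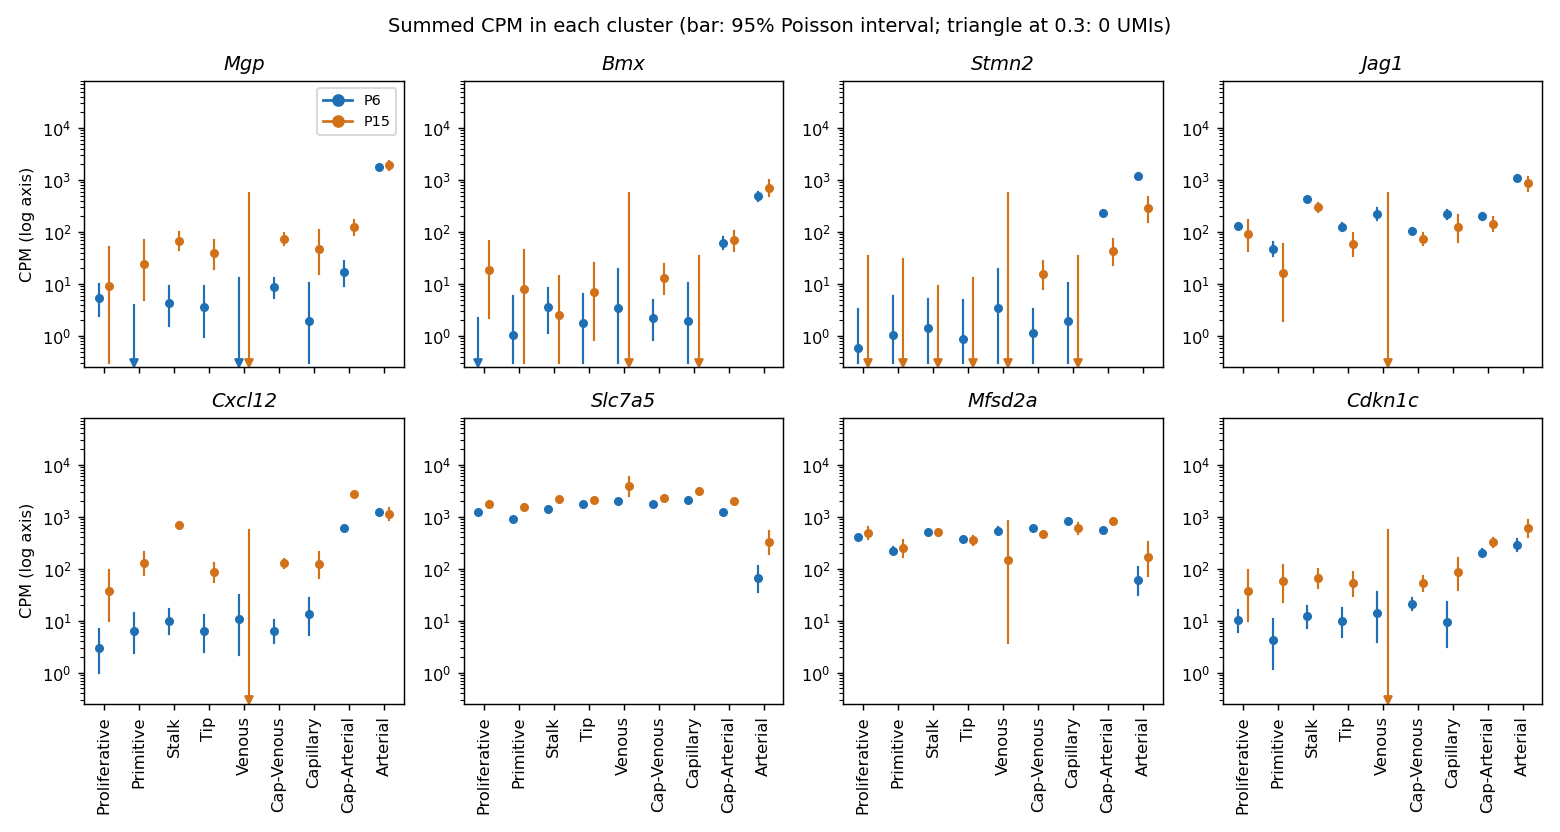
Summed CPM (log axis) of 8 genes in each of the 9 clusters at P6 and P15; bars are 95% Poisson intervals and triangles mark clusters with 0 UMIs. Mgp, Bmx, Stmn2, Jag1 and Cdkn1c are highest in Arterial cells at both ages, Slc7a5 is lowest there, and Cxcl12 is highest in Arterial cells at P6 and in Cap-Arterial cells at P15.

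At P15 the 11 labelled Arterial cells were again compared with Cap-Arterial cells. Of 877 genes over the floor, 28 were at least 2-fold higher (3.19%) and 50 at least 2-fold lower (5.7%), with a median log2 ratio of 0.04. Of the 735 genes that met the stricter floor, 18 were higher (2.45%) and 17 lower (2.31%). Mgp was 15.7 times higher (10.6 to 23.6; 29.6 among cells that passed the stated filter), Bmx 10.3 times (5.82 to 18.6), Fbln5 5.57 times (4.10 to 7.57) and Jag1 6.03 times (3.84 to 9.44). Ptprr, a receptor tyrosine phosphatase, stood at 937.5 CPM against 102, 9.16 times higher (5.68 to 14.9). Pglyrp1, a peptidoglycan recognition protein found in barrier endothelium, had 3 UMIs in Arterial cells and a ratio of 0.0704 (0.0144 to 0.208), or 0.169 with predicted labels. Slc7a5 had a ratio of 0.162 (0.0919 to 0.265), or 0.102 without the Arterial cell that held most of its UMIs, and Slc16a1, the monocarboxylate carrier for lactate and ketone bodies, of 0.145 (0.0690 to 0.269). Slc22a8 had 0 UMIs in Arterial cells and 74 in Cap-Arterial cells, at least 3.998-fold lower, with a bound of 0.511 on the ratio after thinning. Arl5c, a small GTPase of the ARF-like family, had 1 UMI in Arterial cells and a ratio of 0.0444 (0.00112 to 0.251). With predicted labels the ratio was 0.863 for Arl5c, 3.54 for Jag1 and 8.49 for Fbln5.

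Other genes named at P6 were followed in the P15 cells. Vcam1 was 20.98 times higher than in Cap-Arterial cells (7.43 to 72.7; 11.3 without the Arterial cell with most of its UMIs) and Fbln2 16.45 times (6.12 to 51.3; 9.545 after thinning). Serpinf1 was 8.74 times higher (3.93 to 20.06), and Stmn2 6.64 times (2.90 to 15.35), or 10.9 times after thinning. Bmp2 had 4 UMIs in Arterial cells and 0 in Cap-Arterial cells, at least 8.23-fold higher, with a bound of 1.82 after thinning. These 5 genes thus stood higher in Arterial cells at both ages. Ltbp4 had a ratio of 1.65 (0.994 to 2.64) and Car7, on 3 UMIs, of 1.54 (0.279 to 5.72), so neither was told apart from Cap-Arterial cells at this depth. Gja5 had 1 UMI in Arterial and 0 in Cap-Arterial cells, too few for a ratio. Mfsd2a had a ratio of 0.201 (0.0857 to 0.402), or 0.372 after thinning, and Gatm, with 0 UMIs against 39, was at least 2.11-fold lower.

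The lists at P15 are read against the 3.19% of all genes that were at least 2-fold higher and the 5.7% that were at least 2-fold lower than in Cap-Arterial cells, or 2.45% and 2.31% under the stricter floor. Of the barrier carriers, 10 met the stricter floor, of which 5 were lower (Slc7a5, Slc3a2, Slc16a1, Slco1c1 and Itm2a) and 0 higher. Of the elastic fibre genes, 4 met it, of which 1 was higher (Fbln5); Mgp was higher too but reached the first floor only through its Arterial UMIs, with 5.997 expected from Cap-Arterial cells alone. The other lists were counted over the first floor. Caveolar genes were higher in 3 of 4 (Cav2, Cavin3 and Ehd2), and the study's arterial genes in 4 of 8 (Hey1, Crip1, Sat1 and Jag1). Of the study's venous genes 3 of 4 were lower (Emcn, Ctla2a and Tmsb10). Notch genes were higher in 2 of 5 (Jag1 and Hey1), flow-responsive genes in 2 of 7 (Klf4 and Edn1), transcription factors in 2 of 10 (Hey1 and Klf4), mural recruitment genes in 2 of 3 (Jag1 and Edn1), and TGF-beta and BMP genes in 1 of 6 (Id2). Lower were 1 of 2 connexins (Gja1), 1 of 4 chemokine and guidance genes (Cxcl12), 1 of 3 Norrin and Wnt genes (Tspan12, at 0.4985 with an interval of 0.209 to 1.02 that held 1) and the 1 lipid uptake gene over the floor (Angptl4), with 0 higher in each. Of 6 coagulation and adhesion genes Podxl was higher and Emcn lower, and of 16 actin and contractile genes Crip1 was higher and Tmsb10 lower. Of 4 basement membrane, 7 junction, 4 VEGF and Tie, 4 cell cycle, 10 stress genes and 1 interferon gene, 0 were past 2-fold. Jag1, Hey1, Edn1 and Ehd2 on the higher side and Gja1, Tspan12 and Angptl4 on the lower side did not meet the stricter floor, under which the Notch and mural recruitment lists had 0 members past 2-fold. With predicted labels Sat1, Cav2, Hey1, Klf4, Id2 and Podxl had ratios of 1.82, 1.87, 1.84, 1.61, 1.93 and 1.71, under 2-fold, Emcn and Tspan12 had 0.587 and 0.590, and Crip1 had 2.38. Cavin3 was 1.501 times higher without the Arterial cell that held most of its UMIs, Gja1 had a ratio of 0.521 with each cell given equal weight, and Angptl4 of 0.535 after thinning.

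Against all other labelled cells at P15, 33 of 850 genes were at least 2-fold higher in Arterial cells (3.88%) and 89 at least 2-fold lower (10.5%), with a median log2 ratio of -0.10. Once that median was set to 0, 47 were higher and 78 lower. Under the stricter floor the balance turned, with more genes higher than lower, and the counts are given under the dependence on processing. Mgp was 28.4 times higher (21.65 to 37.1), Bmx 40.3 times (24.65 to 65.8; 25.2 with predicted labels), Ptprr 32.1 times (21.4 to 47.9) and Eln 5.54 times (3.63 to 8.18; 13.04 with predicted labels), and Slc7a5 had a ratio of 0.151 (0.0861 to 0.245), or 0.0914 with predicted labels. Of the 872 genes over the floor against Cap-Arterial cells at both ages, 22 were at least 2-fold higher at P6, 27 at P15 and 8 at both: Cav2, Edn1, Fbln5, Ifitm2, Jag1, Mgp, Ptn and Tm4sf1. That is 36.4% of the P6 genes and 29.6% of the P15 genes. On the lower side 36 genes at P6 and 48 at P15 shared 28, or 77.8% and 58.3%, with Slc7a5, Slc3a2, Slc16a1, Mfsd2a and Slc22a8 among them. Of 732 genes that met the stricter floor at both ages, 19 were higher at P6, 18 at P15 and 5 at both (Cav2, Fbln5, Ifitm2, Ptn and Tm4sf1). On the lower side 17 genes at P6 and 15 at P15 shared 10, with Slc7a5 and Slc3a2 among them.

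The Arterial cells of P6 varied among themselves. The variance of UMIs over cells was divided by the Poisson expectation for cells of these depths, and its median was 1.49 over 294 genes with at least 100 UMIs. Malat1, a nuclear noncoding RNA, had the largest value, 41.1, and ran from 5231 to 74756 CPM per cell. Mgp had 31.7, with a median cell at 199.8 CPM and the highest at 14088, and the cell with most UMIs held 15.99% of all its UMIs. Eln had 17.5, with a median of 330.1 CPM and a highest cell at 10221. Cxcl12, the chemokine of arterial endothelium, had 16.02, with a median of 428.9 CPM and a highest cell at 10834. Actb, cytoplasmic actin, had 22.4, Bsg, the chaperone of monocarboxylate carriers, 15.2, the noncoding transcript Gm26917 14.9, and B2m, the light chain of MHC class I, 13.8. With each cell thinned to 2000 UMIs the value of Mgp was 12.04, of Eln 6.995 and of Malat1 17.7. It was then 9.18 for Actb, 8.69 for Gm26917, 7.37 for Cxcl12, 6.41 for Bsg and 6.22 for B2m.

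Mgp and Eln varied together. Over the 40 cells of P6 Spearman's rho was 0.70 between Mgp and Eln, 0.53 between Eln and Fbln5 and 0.50 between Mgp and Dkk2. Mgp and Eln were found together in 19 cells, Mgp without Eln in 3, Eln without Mgp in 7 and neither in 11. Cxcl12 ran the other way, with a rho of -0.36 to Mgp and -0.47 to Fbln5, and of 0.43 to Klf2. Bmx had a rho of -0.08 to Mgp. Over the 11 cells of P15 rho was 0.60 between Mgp and Eln, 0.59 between Eln and Fbln5 and 0.50 between Mgp and Dkk2, and of Cxcl12 it was -0.39 to Mgp and -0.65 to Fbln5. Other pairs differed from P6, with a rho of 0.62 between Bmx and Mgp and -0.04 between Cxcl12 and Klf2. These are descriptions over cells of 1 library at each age, which share its preparation and whose depths differ.

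Between P6 and P15 the Arterial cells differed in 46 genes at least 2-fold higher (5.16% of 891 genes over the floor) and 70 at least 2-fold lower (7.86%), with a median log2 ratio of -0.03. Of these, 24 of the 46 and 40 of the 70 were past 2-fold in the same direction in Cap-Arterial cells. Among all 891 genes, 43 (4.83%) were at least 2-fold higher and 84 (9.43%) at least 2-fold lower in Cap-Arterial cells. Both clusters were compared between the same 2 libraries, so the overlap cannot tell age from library. Under the stricter floor 30 of 741 genes were higher (4.05%) and 28 lower (3.78%). With predicted labels over the first floor more genes were higher than lower, and the counts are given under the dependence on processing. Ptprr stood at 937.5 CPM in P15 Arterial cells and 75.9 CPM in P6 Arterial cells, 12.4 times higher (6.77 to 23.8), and was 10.7 times higher in Cap-Arterial cells. Bsg was 6.13 times higher (5.48 to 6.87) and 5.21 times in Cap-Arterial cells. Ly6c1, a surface protein of endothelium and leukocytes, was 5.02 times higher (3.90 to 6.49), and Depp1, a target of FOXO factors, 4.83 times (3.19 to 7.34). Cdkn1a, an inhibitor of cyclin-dependent kinases, was 4.53 times higher (2.52 to 8.20) and Edn1 4.17 times (2.42 to 7.19). In Cap-Arterial cells these 4 genes were 4.47, 3.80, 4.29 and 2.82 times higher.

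The 6 genes named as lower at P15 were of varied kinds. Aqp1, the water channel, had 69 UMIs in P6 Arterial cells and 0 at P15, at least 5.71-fold lower (a ratio of 0.0155 with predicted labels), and was at least 17.4-fold lower in Cap-Arterial cells. Gm29216, annotated as an unprocessed pseudogene, whose reads could be those of a near-identical gene copy, had 81 UMIs at P6 and 0 at P15, at least 6.71-fold lower. Col18a1, a basement membrane collagen, had a ratio of 0.196 (0.0773 to 0.414), Stmn2 of 0.242 (0.130 to 0.414) and Tmsb10, an actin-sequestering thymosin, of 0.273 (0.204 to 0.359). Gm37760 had a ratio of 0.0503 (0.00126 to 0.289) with the published labels and 0.883 with predicted labels. With predicted labels the ratio was 0.431 for Col18a1 and 0.423 for Stmn2.

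The ratio of P15 to P6 in Arterial cells was set beside that in Cap-Arterial cells for the 5 markers, Cxcl12 and Slco1a4; the difference between the clusters was not tested. Mgp had a ratio of 1.10 in Arterial cells (0.866 to 1.39) and was 7.30 times higher at P15 in Cap-Arterial cells (3.85 to 14.6). Of the 37 Mgp UMIs in P15 Cap-Arterial cells 18 came from 1 cell, which also held Bmx, Eln and Fbln5; without it the ratio was 3.865 (1.84 to 8.33), and among cells that passed the stated filter 3.42 (1.59 to 7.49). Without the P15 Arterial cell that held 36 of its 94 UMIs, the Arterial ratio of Mgp was 0.7585 (0.564 to 1.004). Eln had a ratio of 0.599 in Arterial cells (0.391 to 0.888) and 3.24 in Cap-Arterial cells (1.91 to 5.51). In all other labelled cells, which include Cap-Arterial cells, Eln gave 90 of 9443465 UMIs at P6 and 223 of 2091130 at P15. The sum of the 5 markers stood there at 26.8 CPM at P6 and 203 CPM at P15, against 147 and 327 CPM in Cap-Arterial cells. The higher level at P15 was thus not confined to Cap-Arterial cells. Cxcl12 had a ratio of 0.928 in Arterial cells (0.681 to 1.24), or 0.668 (0.457 to 0.9505) without the P15 cell that held 20 of its 56 UMIs, and 4.59 in Cap-Arterial cells (4.10 to 5.14). Slco1a4 had a ratio of 2.62 in Arterial cells (1.74 to 3.91) and 10.2 in Cap-Arterial cells (8.23 to 12.6). Genes of pericytes, which can make Mgp and Eln, also stood higher at P15 in Cap-Arterial cells, at 175 CPM against 10.8. In all other labelled cells, which include Cap-Arterial cells, they stood at 244 CPM at P15 and 12.2 CPM at P6. In Arterial cells they stood at 40.8 CPM at P15 (4.94 to 147) and 20.3 CPM at P6 (5.52 to 51.8). These intervals, on 2 and 4 UMIs, overlapped. The part of pericyte genes in the ratios was not tested. For Mgp, Eln, Cxcl12 and Slco1a4 the intervals of the clusters did not overlap, nor did they without the P15 cell with most UMIs of the gene in each cluster. For the other 3 markers they did. Cxcl12 and Slco1a4 had Arterial to Cap-Arterial ratios on opposite sides of 1 at P6 and P15. Their differing age ratios follow from that and are no separate result. Mgp and Eln had Arterial to Cap-Arterial ratios that were higher at P6 than at P15. Their differing age ratios restate this and are no separate result either. The share of all genes whose intervals did not overlap is not given here. Bmx had a ratio of 1.45 in Arterial cells (0.958 to 2.16) and 1.12 in Cap-Arterial cells (0.638 to 1.88). Dkk2 was lower at P15 in both, with a ratio of 0.496 in Arterial cells (0.218 to 0.995), or 0.248 (0.0658 to 0.663) without the P15 cell that held 5 of its 9 UMIs, and, on 1 UMI, of 0.102 in Cap-Arterial cells (0.00250 to 0.6205). Gkn3 had a ratio of 3.835 in Arterial cells (1.97 to 7.43), but 1.71 (0.656 to 4.03) without the P15 cell that held 12 of its 20 UMIs, an interval that held 1, and so is not called higher at P15 there. In Cap-Arterial cells its ratio was 16.6 (2.01 to 762.1), where P6 held 1 UMI. The libraries also differed in transcripts tied to sex. Xist was found in 7 and a Y-linked gene in 13 of the 40 Arterial cells at P6, and in 0 and 7 of the 11 at P15. Among other labelled cells they were found in 272 and 384 of 1520 at P6 and in 23 and 210 of 427 at P15. The part of this difference in the ratios between ages was not tested.

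**Figure D5:**
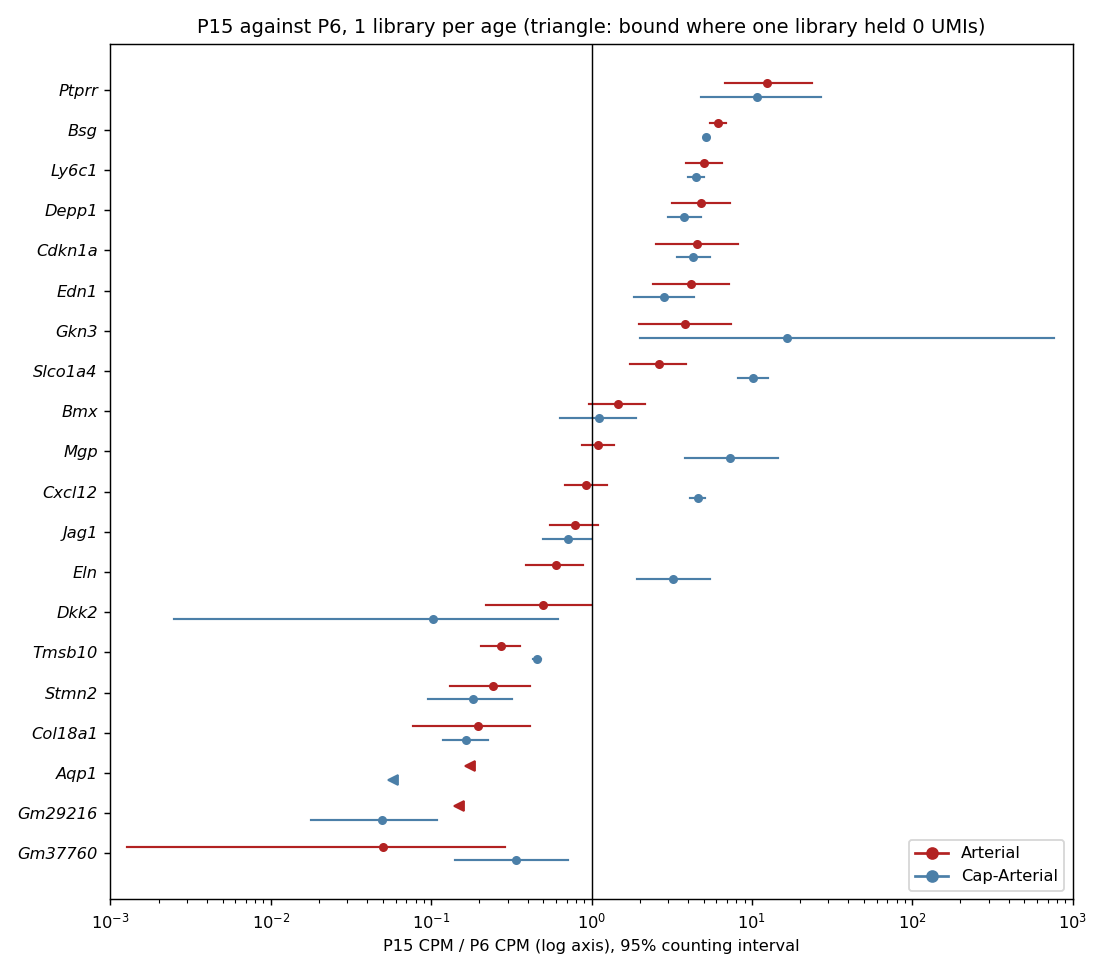
Ratio of P15 to P6 CPM (log axis) in Arterial and in Cap-Arterial cells for the genes named by age, the 5 markers, Cxcl12, Slco1a4 and Jag1; bars are 95% counting intervals and triangles are bounds where a library held 0 UMIs. Ptprr, Bsg and Ly6c1 are higher at P15 in both clusters, while Cxcl12 lies at 0.928 in Arterial cells and at 4.59 in Cap-Arterial cells. Mgp lies at 7.30 in Cap-Arterial cells, or at 3.865 without the 1 cell that held 18 of its 37 UMIs at P15.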

How the data were processed

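Retinal endothelial cells of P6 and P15 mice were sequenced as 1 library per age, and around 12000 cells were loaded per sample per the labels. The authors deposited whole-number UMI counts, not normalized, for every gene in each barcode. The submitters' processing notes name mm10 and Seurat 3.0; the aligner and annotation behind the counts were not given in the sources used here. Of 22734 gene identifiers at P6, 22695 carried a symbol, and of 21785 at P15, 21745 did; identifiers of 1 symbol were added, which left 22687 and 21736 genes, 19813 of them in both. UMIs without a symbol were 0.0145% at P6 and 0.0146% at P15 and were left out. Totals were 13958124 and 11589641 UMIs.

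All 1560 P6 and 438 P15 labels in the copy used here were found among the barcodes. Labelled cells were used without a further filter; the study's stated filter (200 to 3500 genes, at most 5% mitochondrial UMIs, no Hbb-bt, Neurod1 or Cd63 UMI, where limits stated for RNA counts were read as numbers of genes and the mitochondrial limit as an upper limit) left 1424 of 1984 P6 barcodes, with 38 of the 40 Arterial cells, and 1644 of 2141 P15 barcodes, with 11 of 11. No doublet caller was run; 0 Arterial cells held both Xist and Y-linked UMIs, against 12 other labelled cells at P6 and 4 at P15, and values without such cells are among the alternatives.

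UMIs were summed per cluster and library. Levels have exact Poisson intervals, shares have Clopper-Pearson intervals, and ratios have intervals from the binomial distribution of one group's UMIs given the sum. Counts of genes past 2-fold and gene lists used genes with at least 10 UMIs expected in Arterial cells at equal levels, from both groups together; alternatives added after seeing the data were 10 UMIs met by each group alone and, between ages, leaving out the P15 cell with most UMIs of a gene or keeping cells that passed the stated filter; a group at 0 was bounded with 3 UMIs. Named were the markers, the 15 highest and 10 lowest genes against Cap-Arterial cells and the 10 highest and 5 lowest against all other labelled cells at P6, the 5 highest and 5 lowest against Cap-Arterial cells at P15, the 6 highest and 6 lowest between ages, ranked by the interval bound nearest 1 among genes with at least 50 UMIs, the 8 most variable genes with at least 100 UMIs, and members of the 22 lists and 11 cell type marker lists. Members past 2-fold were named before others; Sox17, Hey1, Efnb2, Dll4, Gja4, Slc2a1, Abcb1a, Klf2, Cav1 and Cdkn1c were singled out after their values were seen. The members and lists were chosen with earlier results of these data known. Alternatives were another floor or fold, thinning to 2000 UMIs, equal weight of cells, other totals, other cell filters, leaving out 1 Arterial cell, and P15 labels predicted from 15 neighbours in 13 principal components, which in 5-fold cross-validation were right for 29 of 40 P6 and 9 of 11 P15 Arterial cells. The ratio step was run on simulated counts drawn from Poisson distributions, which the intervals assume, without variation among cells. That run checks the computation and cannot show whether the intervals are wide enough for the variation among these cells. Results for 2 genes are not reported here, though counts over all genes and lists include them. A planned comparison of the Gja4 and Gja5 proteins was not run. Python 3.11.15 was used with numpy 2.4.6, scipy 1.17.1, pandas 2.3.3, scikit-learn 1.9.0 and matplotlib 3.10.9.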

Additional observations from a re-analysis of the deposited data

Results flagged for a closer look

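For the genes given here, the ratio of Arterial to Cap-Arterial cells lay on opposite sides of 1 at P6 and P15, with intervals that left out 1 at each age. They were picked by this rule from the 872 genes over the floor at both ages. The intervals hold counting error alone and leave out variation among cells. Among P6 Arterial cells the variance was 41.1 times the Poisson expectation for Malat1 and 16.02 times for Cxcl12. The sides of 1 are thus a description. The difference between the ages was not tested, and age and library cannot be told apart. Slco1a4 had a ratio of 2.45 at P6 (1.78 to 3.35) and 0.633 at P15 (0.451 to 0.868). Cxcl12 had a ratio of 2.08 at P6 (1.77 to 2.43) and 0.420 at P15 (0.315 to 0.551). In both genes the level in Cap-Arterial cells was the one that differed more between the ages, at 136 and 1384 CPM for Slco1a4 and 592 and 2715 CPM for Cxcl12. Skil, a corepressor of SMAD signalling, had a ratio of 1.48 at P6 and 0.396 at P15, on 5 UMIs in the P15 Arterial cells. Malat1 had a ratio of 1.48 at P6 and 0.876 at P15. Ribosomal protein genes had ratios of 0.878 and 1.33 for Rps16, 0.812 and 1.27 for Rpl3, and 0.775 and 1.47 for Rpl13. With predicted P15 labels the P15 ratios of these 3 genes were 1.03, 1.06 and 1.19. All 3 overlap noncoding genes on their own strand, Rpl13 also the protein-coding Gm20388 there and Rpl3 also Syngr1 on the opposite strand, so their counts are uncertain to that extent.

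Barcodes without a label were not part of the comparisons, and at P6, where every label is at hand, 10 of 424 held at least 3 of the 5 arterial markers. Among labelled cells 22 of 40 Arterial cells and 4 of 1520 others did. All 10 held a UMI of Cd63, 1 of the genes by which the study left cells out, as did 220 of the 424 barcodes without a label and 0 of the 1560 labelled cells. Of the 10, 9 held UMIs of Pecam1 and Cdh5. The remaining barcode held 0 of either, with 52 UMIs of Mgp, 15 of Acta2 and 24 of Rgs5, genes of smooth muscle and pericytes.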

How the results depend on the processing

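Of 2145 gene ratios under alternatives, 2046 stayed within the counting interval of the reported value, 96 moved past it and 3 reversed. The main results, such as counts of genes past 2-fold and the summed markers, were less steady. Of their 132 values under alternatives, 65 moved and 67 stayed the same. Of 312 list counts 80 moved, and of 174 list medians 31 moved. Pcna at P6 against Cap-Arterial cells was 0.968 among cells that passed the stated filter, in place of 2.22. With predicted P15 labels, Arl5c against all other labelled cells was 1.79 in place of 0.0757 and Gm37760 4.94 in place of 0.254, on 1 UMI each with the published labels. The cause was not tested.

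Counts of genes past the fold moved with the floor, the fold, thinning and predicted labels. Against Cap-Arterial cells at P6, genes higher and lower were 275 and 356 with a floor of 5 expected UMIs, 51 and 64 with 20, 31 and 53 at 3-fold, and 54 and 80 after thinning. Against all other labelled cells at P6 they were 380 and 497, 92 and 119, 63 and 119, and 79 and 151. Against Cap-Arterial cells at P15 they were 94 and 184, 8 and 23, 8 and 29, and 5 and 33, and with predicted labels 94 and 178. The shares moved too: against Cap-Arterial cells at P15, 3.19% of genes were higher and 5.7% lower as reported, 4.9% and 9.58% with a floor of 5, 1.45% and 9.59% after thinning, and 2.8% and 5.3% with predicted labels. Against all other labelled cells at P15 they were 101 and 241, 11 and 35, 11 and 47, and 11 and 41, and with predicted labels 145 and 272. Setting the median log2 ratio to 0 gave 47 higher and 78 lower there, in place of 33 and 89. Between ages, predicted labels gave 243 higher and 157 lower genes. A floor of 10 UMIs met by each group alone, chosen after seeing the data, gave 69 higher and 60 lower genes against Cap-Arterial cells at P6 and 18 and 17 at P15, 189 and 89 against all other labelled cells at P6 and 30 and 21 at P15, and 30 and 28 between ages. Of the lists against Cap-Arterial cells it left 3 of 6 elastic fibre genes higher and 9 of 14 barrier genes lower at P6, and 1 of 4 and 5 of 10 at P15; 2 of 6 of the study's venous genes were lower at P6, and 2 of 6 of its arterial genes higher at P15.

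The ratio of the 5 summed markers to Cap-Arterial cells was 31.5 after thinning at P6, and at P15 it was 16.7 under the stated filter and 8.77 without the Arterial cell with most of their UMIs. To all other labelled cells at P15 it was 25.9 with predicted labels and 14.2 without that cell. Against all other labelled cells in place of Cap-Arterial cells, the genes higher were 3 of 5 elastic fibre genes and 5 of 9 caveolar genes at P6 (6.3% of all genes), and 1 of 4 caveolar genes and 2 of 5 of the study's arterial genes at P15 (3.88% of all genes). Mgp, Eln, Fbln2 and Ltbp4 lay under the floor in that comparison at P6. Of the study's venous genes, 6 of 7 were lower at P15 there (10.5% of all genes), and 5 were lower against Cap-Arterial cells with a floor of 5. Slc38a5, Bgn and Aplnr, on 2 Arterial UMIs each, reached the floor against all other labelled cells only through those cells. Under the stricter floor 3 of 4 venous genes were lower in that comparison. Unlabelled P6 barcodes with at least 2 markers were 17, and with at least 4 markers 4. With 11 Arterial cells and 49069 UMIs at P15, 877 genes reached the floor, against 3367 at P6, so most genes could not be compared at P15. Of 290 gene ratios run under each setting, 39 moved after thinning, 22 without the Arterial cell with most UMIs, 5 with other totals, 4 with equal weights and 4 under the stated filter, and 290 stayed within the interval with the median set to 0 or without cells that held Xist beside Y-linked UMIs. Of 115 run with predicted labels, 22 moved.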
